A study of Drosophila melanogaster with 21 samples.

Results

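This account is about small nucleolar RNA (snoRNA) genes as they were read in poly(A) libraries of S2R+ cells, an embryonic line of Drosophila melanogaster with features of macrophages. Genes were chosen by the level of their counts: a gene entered if the annotation gives it the biotype snoRNA and if at least 3 of the 21 libraries held at least 10 of its reads. Of 17558 gene IDs counted, 258 were snoRNA genes, and 53 of these passed. The rule used the count level, so the levels below are given as a description, and a shallow gene may have entered through the group in which it happened to be high.

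SnoRNAs are short nuclear RNAs that guide the chemical modification of other RNAs. Box C/D snoRNAs direct 2′-O-methylation by fibrillarin (Fib in the fly), and box H/ACA snoRNAs direct pseudouridylation by dyskerin (Nop60B in the fly). Small Cajal body RNAs (scaRNAs) guide the same reactions on spliceosomal RNAs, and U3 acts in the cleavage of the ribosomal RNA precursor. Most fly snoRNAs lie in introns of other genes, are freed from the debranched intron by exonucleases and carry no poly(A) tail when mature. Symbols that begin with Me name a methylation guide and those with Psi a pseudouridine guide.

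The cells had been depleted of Ime4, of CG7818, of both together (the double depletion), of Fl2d, of CG6422 or of YT521, and were compared with control cells, with 3 libraries in each of the 7 groups. The labels do not say how the genes were depleted, what the control cells received or whether the libraries of a group came from separate cultures, so p-values measure the spread between these libraries, which may be technical. Ime4 (Mettl3) and CG7818 (Mettl14) are the core of the enzyme that places N6-methyladenosine (m6A) on RNA, Fl2d is a further subunit of the writer complex, and CG6422 (Ythdf) and YT521 (Ythdc1) are m6A-binding proteins of the YTH family. For the double depletion the genotype field names Ime4 alone, and the grouping here rests on the title, which names the pair, as the treatment protocol does.

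The depleted genes were low in their own libraries. Levels are in CPM, which are counts scaled to a common library size. Mettl3 had 6.58, 5.40 and 5.29 CPM in the Ime4 libraries and 8.22, 4.40 and 3.37 CPM in the double depletion, against 59.9, 62.0 and 62.8 CPM in the control. Mettl14 had 4.79, 6.87 and 5.73 CPM in the CG7818 libraries and 7.01, 7.24 and 4.28 CPM in the double depletion, against 66.2, 63.8 and 63.6 CPM in the control. The gene fl(2)d had 18.1, 23.5 and 23.6 CPM after Fl2d depletion, against 126.4, 126.0 and 123.6 CPM in the control. Ythdf had 29.1, 29.7 and 17.2 CPM after CG6422 depletion, against 106.1, 95.8 and 92.6 CPM in the control, and Ythdc1 had 104.0, 78.3 and 77.9 CPM after YT521 depletion, against 374.0, 402.8 and 395.6 CPM in the control. Depth was 20214568 to 28296393 gene counts per library. Of the marker lists, 7 of 8 plasmatocyte genes passed the filter on low counts, 1 of 4 neuron genes, 2 of 4 muscle genes and 0 of 4 fat body and gut genes. Of 5 crystal cell and lamellocyte genes 4 were matched to a gene ID and 2 passed. Of 4 germline and follicle genes 2 were matched, and both passed.

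By their symbols, 30 of the 53 genes are box H/ACA snoRNAs, 15 are box C/D snoRNAs, 4 are scaRNAs, 1 is a U3 gene and 3 show no class. Of all the box H/ACA genes counted 27.0% passed, against 16.1% of the box C/D genes. The box H/ACA genes that passed are 130 to 220 bases long and the box C/D genes 46 to 140. The rule takes raw counts, and the part of length in these shares was not tested. The genes are 46 to 316 bases long (median 139). In the BDGP6 assembly 16 lie on chromosome arm 3R, 13 on 2R, 13 on X, 7 on 3L and 4 on 2L. The annotation places 49 of them in introns of 32 host genes on the same strand, with 0 bases in a host exon, and 33 are alone in their intron. The other 4, snoRNA:Psi28S-1153, snoRNA:2R:9445410, snoRNA:Psi28S-3342 and snoRNA:U3:9B, have no host on their strand.

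The host gene's kind went with whether a snoRNA gene passed. Introns of ribosomal protein genes hold 36 of the 53, out of 72 snoRNA genes within the spans of such genes. Here and below, totals count all snoRNA genes within the span of a host. Of all 258, 14 lie in host exons and 3 partly in them. Introns of the Uhg genes, whose spliced RNAs have no known protein product and which carry many snoRNAs, hold 4, or 9.09% of 44. Other hosts hold 9, or 7.03% of 128. The hosts also differed in level, with a median of 1884 CPM per kilobase for ribosomal protein hosts, 50.1 for Uhg hosts and 29.4 for other hosts. The part of host level in these shares was not tested. The densest host was RpS7, a protein of the small ribosomal subunit, in which all 7 snoRNA genes of a single intron of 1371 bases passed. RpS5a holds 4 of its 14, RpL17 holds 3, and Fib, which encodes the box C/D methyltransferase, is itself the host of snoRNA:229. The hosts dmt, RpL27A and eEF1alpha1 carry newer gene IDs and were not analysed here, which leaves 46 genes with a host to set beside them.

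Reads of these genes were few. The median count per library was 4 to 107 (median 10 over the 53 genes), 14 genes had a median of at least 20, and 12 had at least 10 counts in all 21 libraries. All 53 together had 595 to 1367 counts per library, and over the series they held 73.3% of the counts of all 258 snoRNA genes. At the edge of the rule, snoRNA:Me28S-G3255a (100 counts in all) and snoRNA:Psi28S-1192a (122 counts) had 10 counts in just 3 libraries. Just outside, snoRNA:Me28S-G2173 (142 counts) and snoRNA:Psi28S-3327a (124 counts) reached 10 counts in 2 libraries.

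Per length, the RNAs of snoRNA genes were far below those of their hosts. In CPM per kilobase, the 46 genes reached 0.0655% to 24.9% of the level of their host's exons (median 0.267%), with 12 over 1% and 5 over 10%. Across these 46 genes Spearman's rho between the level of the snoRNA gene and that of its host was 0.015, and across all 235 snoRNA genes with a host in the files it was 0.433. The points share libraries, and several share a host, so these values are a description. A read from an unspliced host intron that covers the snoRNA is counted for the snoRNA gene, and such reads cannot be told apart from snoRNA or precursor in count tables.

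The highest level per length was that of snoRNA:Psi18S-531, a pseudouridine guide in the second intron of RpL22 (X:763083-763234, minus strand). It had 30.1 CPM per kilobase, 20.03% of the level of RpL22. snoRNA:Psi28S-2179 lies in the same intron of 1310 bases (X:763942-764086) and had 10.4 CPM per kilobase. Within the RpS7 intron the 7 genes had 1.91 to 5.84 CPM per kilobase. scaRNA:PsiU5-44, a guide for the U5 spliceosomal RNA in an intron of the splicing regulator tra2 (2R:14602986-14603124), stood at 24.9% of its host, the highest share. snoRNA:Tudor-SN-a, in an intron of Tudor-SN, a gene for an RNA-binding Tudor domain protein (3L:259970-260280), had 12.9 CPM per kilobase and 10.7% of its host. snoRNA:Me28S-A1322, a methylation guide in an eEF1alpha1 intron (2R:11893123-11893195), had 24.9 CPM per kilobase. snoRNA:Psi28S-291 in RpL3 (3R:11223571-11223790) had 11.2, snoRNA:Psi28S-2996 in RpL5 (2L:22535458-22535593) had 9.92, snoRNA:U3:9B (X:10348125-10348337) had 6.31 and the hostless snoRNA:Psi28S-1153 (2R:13557539-13557686) had 9.05 CPM per kilobase.

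The summed level of the 53 genes was similar in the 7 groups. It was 45.1 ± 7.06 CPM after Ime4 depletion, 42.1 ± 4.42 after CG7818, 37.2 ± 3.81 in the double depletion, 40.5 ± 10.5 after Fl2d, 39.5 ± 2.65 after CG6422 and 37.0 ± 2.44 after YT521 depletion, against 39.3 ± 2.05 CPM in the control (SD, n = 3 each). The sums of the Fl2d libraries were 28.4, 45.6 and 47.5 CPM, and apart from the first of these all libraries of the series lay between 33.7 and 52.6 CPM. The first Fl2d library was the lowest of all, and the other Fl2d libraries lay above all 3 control sums of 41.6, 37.7 and 38.7 CPM.

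Libraries Fl2d 1 and YT521 2 stood apart before any comparison. The mitochondrial large ribosomal RNA, mt:lrRNA, took 1.93% and 2.89% of their gene counts, against 5.61% to 8.62% in the other 19 libraries. They also had the fewest snoRNA genes with a count, 130 and 145, against 166 to 192 in the others. Fits without both of them are given below where a call changed. Among the genes without a host, snoRNA:Psi28S-3342 had 0.14, 1.54 and 2.21 CPM in the Fl2d libraries, against 1.73, 1.11 and 1.04 CPM in the control, and snoRNA:Psi28S-1153 had 0.67, 1.30 and 1.91 CPM, against 1.55, 1.11 and 1.14 CPM. In both Fl2d 1 lay below all controls. In the other hostless genes it did not, with 1.10 CPM of snoRNA:2R:9445410 and 1.67 CPM of snoRNA:U3:9B in Fl2d 1.

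**Figure D1:**
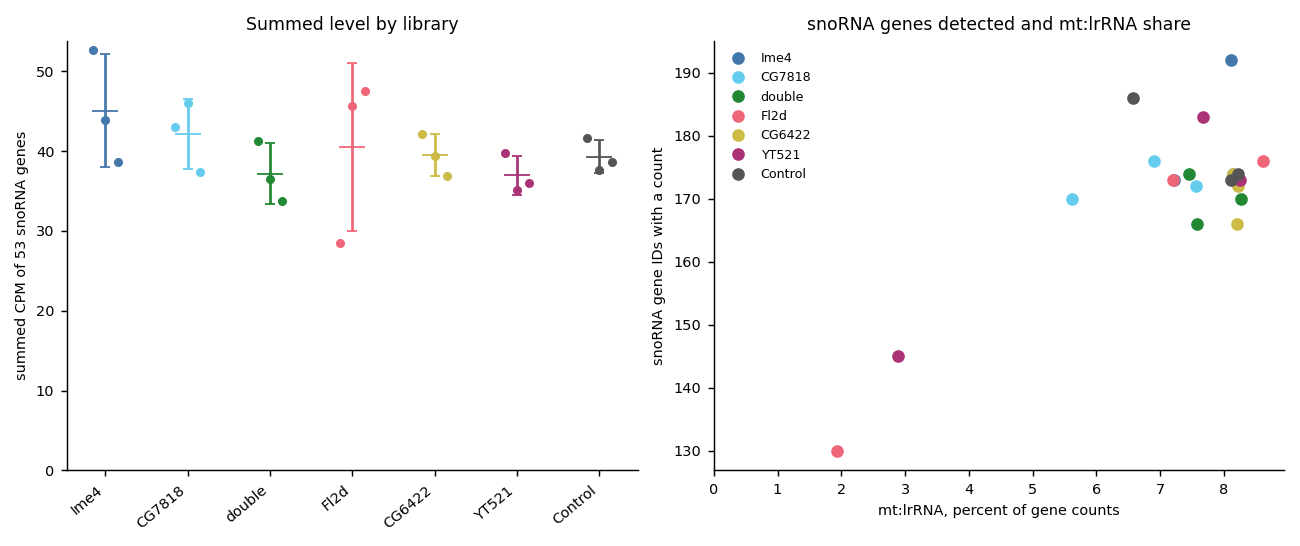
Summed level of the 53 snoRNA genes in CPM in each library (left, points, with the mean and SD of each group of 3 as bars), and the number of the 258 snoRNA gene IDs with a count against the percent of gene counts taken by mt:lrRNA (right, points are libraries). The lowest sum, 28.4 CPM, and the lowest number, 130, belong to the first Fl2d library, and the second lowest number, 145, to the second YT521 library.

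The tests were made with edgeR's quasi-likelihood model over 8360 genes, and a gene was called at a Benjamini-Hochberg adjusted p under 0.05. Of the 53 genes 47 passed the filter on low counts. The 6 that did not were snoRNA:Me28S-G3255a, snoRNA:Psi18S-1377c, snoRNA:Psi18S-1397, snoRNA:Psi28S-1192a, snoRNA:Psi28S-2648 and snoRNA:U49:66Da. Over the 282 tests in 6 comparisons with the control, 6 were called, 2 higher and 4 lower. All 6 comparisons share the 3 control libraries. The median SE of a log2 fold change was 0.40 to 0.42 for these genes and 0.08 for all genes. In the Ime4 comparison the median half-width of the normal interval was 0.78 for these genes and 0.15 for all genes, and changes within such intervals were not detectable at this depth.

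snoRNA:Psi18S-531, the most abundant, shows the precision that the deepest of these genes reached. It had 4.31, 4.42 and 3.57 CPM after Ime4 depletion, 4.96, 5.51 and 4.09 after CG7818, 4.97, 4.80 and 4.42 in the double depletion, 4.30, 4.56 and 4.17 after Fl2d, 4.54, 5.05 and 3.94 after CG6422 and 4.37, 4.89 and 4.52 after YT521 depletion, against 5.27, 4.52 and 4.80 CPM in the control. Only the Ime4 libraries lay below all controls. Its log2 fold changes were −0.24 to 0.00, with SEs of 0.12, and none passed the test. The hostless snoRNA:Psi28S-1153 averaged 1.32, 1.37, 1.32, 1.29, 1.37 and 1.43 CPM in the Ime4, CG7818, double, Fl2d, CG6422 and YT521 depletions, against 1.27 CPM in the control. snoRNA:U3:9B spread widely within groups, with 2.66, 1.99 and 1.33 CPM after Ime4 depletion and 1.10, 0.95 and 0.45 CPM after CG7818 depletion, against 1.20, 1.01 and 1.93 CPM in the control, and did not pass the test in either.

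**Figure D2:**
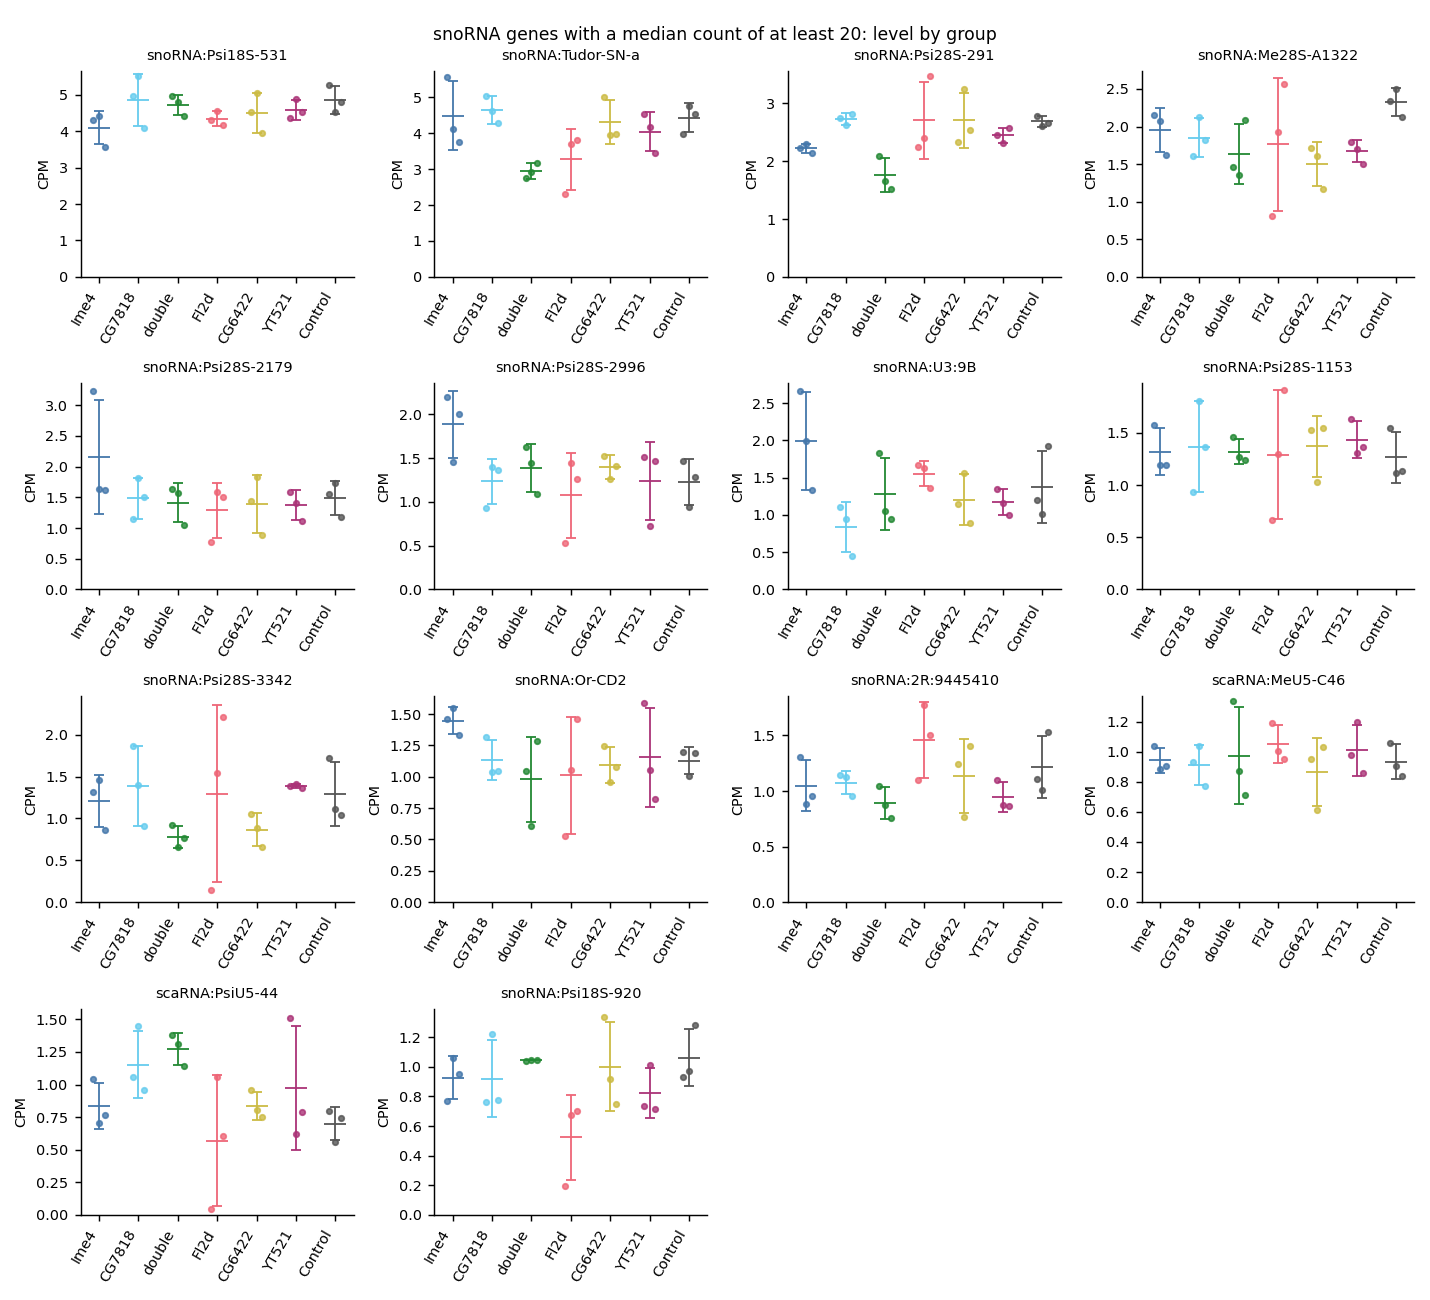
Level in CPM of the 14 snoRNA genes with a median count of at least 20, by group, with libraries as points and the mean and SD of 3 libraries as bars. In snoRNA:Tudor-SN-a and snoRNA:Psi28S-291 the 3 libraries of the double depletion lie below the 3 control libraries, and in snoRNA:Psi18S-920 the 3 Fl2d libraries do.

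In the double depletion 2 of the 47 genes fell and 0 rose, 4.26% called against 11.4% of all genes tested, of which 6.29% rose and 5.13% fell. snoRNA:Psi28S-291, a pseudouridine guide in RpL3, had 2.09, 1.66 and 1.52 CPM in the double depletion, against 2.79, 2.61 and 2.67 CPM in the control. The groups did not overlap. The log2 fold change was −0.60 (SE 0.17, adjusted p = 0.0225 with edgeR). snoRNA:Tudor-SN-a had 2.76, 2.92 and 3.18 CPM in the double depletion, against 3.98, 4.76 and 4.55 CPM in the control. Again no library of the double depletion reached the lowest control. The log2 fold change was −0.59 (SE 0.18, edgeR adjusted p = 0.0326). Their hosts gave log2 fold changes of −0.13 for RpL3 and −0.04 for Tudor-SN, neither called, with SEs of 0.08 and 0.05.

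Neither call in the double depletion held in every fit with a library left out. The adjusted p of snoRNA:Psi28S-291 from edgeR was 0.0676 without control 1, 0.063 without control 2, 0.0897 without double depletion 2 and 0.0972 without double depletion 3. That of snoRNA:Tudor-SN-a was 0.15 without control 2, 0.0758 without control 3, and 0.126, 0.0953 and 0.0524 without double depletion 1, 2 and 3. Without both libraries low in mt:lrRNA both genes were called lower, and scaRNA:PsiU5-44 (0.90, edgeR adjusted p = 0.0297) and snoRNA:Me28S-U3344b (1.21, 0.0447) were called higher.

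The same 2 genes in the single depletions were not both low. snoRNA:Psi28S-291 had 2.23, 2.30 and 2.14 CPM after Ime4 depletion and 2.76, 2.62 and 2.82 CPM after CG7818 depletion, beside the control values above. The Ime4 libraries lay below all controls and above all libraries of the double depletion. snoRNA:Tudor-SN-a had 5.58, 4.11 and 3.76 CPM after Ime4 and 5.05, 4.61 and 4.27 CPM after CG7818 depletion, overlapping the control in both. A test of the double against either single depletion was not made here.

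After Fl2d depletion 2 of the 47 genes rose and 2 fell, 8.51% called against 41.3% of all genes tested, of which 21.4% rose and 19.9% fell. By their symbols both genes that rose are box C/D snoRNAs. The class as a sum did not stand out, at 101.1% of the control mean for box C/D genes and 105.7% for box H/ACA genes. In the fit without both libraries low in mt:lrRNA, given below, box H/ACA genes were called higher too. snoRNA:Me28S-A2113, a methylation guide in RpL30 (2L:19008611-19008683), had 0.62, 1.30 and 1.31 CPM after Fl2d depletion, against 0.62, 0.70 and 0.59 CPM in the control. Fl2d 2 and Fl2d 3 were high and Fl2d 1 lay among the controls. The log2 fold change was 0.73 (SE 0.27, edgeR adjusted p = 0.0314). snoRNA:Or-CD10, whose symbol names no target, lies in RpL7A (X:6531635-6531701) and had 7, 11 and 11 counts after Fl2d depletion, or 0.33, 0.53 and 0.55 CPM, against 3, 8 and 3 counts, or 0.13, 0.28 and 0.15 CPM, in the control. The groups did not overlap, and the log2 fold change was 1.25 (SE 0.45, edgeR adjusted p = 0.0316). No control library reached the 10 counts of the rule, which this gene met through depletion libraries alone. Its values over the control, here and in the other depletions, are therefore a description.

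The 2 that fell after Fl2d depletion were lowest in the first Fl2d library. snoRNA:Psi18S-920, a pseudouridine guide in RpL10Ab (3L:11822984-11823124), had 0.19, 0.67 and 0.70 CPM, against 0.93, 0.97 and 1.29 CPM in the control. All 3 Fl2d libraries lay below the control. The log2 fold change was −1.01 (SE 0.33, edgeR adjusted p = 0.0179). snoRNA:Tudor-SN-a had 2.29, 3.70 and 3.82 CPM after Fl2d depletion, beside the control values of 3.98, 4.76 and 4.55 CPM. The groups did not overlap, and the log2 fold change was −0.45 (SE 0.18, edgeR adjusted p = 0.0485).

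Which genes were called after Fl2d depletion depended on single libraries. Without Fl2d 1, edgeR's adjusted p was 0.13 for snoRNA:Psi18S-920 and 0.291 for snoRNA:Tudor-SN-a. Without control 3 it was 0.0677 for snoRNA:Psi18S-920, and for snoRNA:Tudor-SN-a it was 0.15 without control 2 and 0.097 without control 3. The call of snoRNA:Me28S-A2113 was lost without any 1 of controls 1 to 3 (0.0784, 0.0504 and 0.0788), without Fl2d 2 (0.139) and without Fl2d 3 (0.144). That of snoRNA:Or-CD10 was lost without control 1 (0.109), control 3 (0.0872), Fl2d 2 (0.0832) or Fl2d 3 (0.0953). Without both libraries low in mt:lrRNA the adjusted p was 0.115 for snoRNA:Psi18S-920 and 0.274 for snoRNA:Tudor-SN-a, and 4 genes rose and 0 fell: snoRNA:Me28S-A2113 (log2 fold change 1.003), snoRNA:Or-CD10 (1.43), snoRNA:Or-aca5 (1.51) and snoRNA:Psi18S-1377b (1.35), with edgeR adjusted p of 0.00377, 0.0258, 0.033 and 0.00263.

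**Figure D3:**
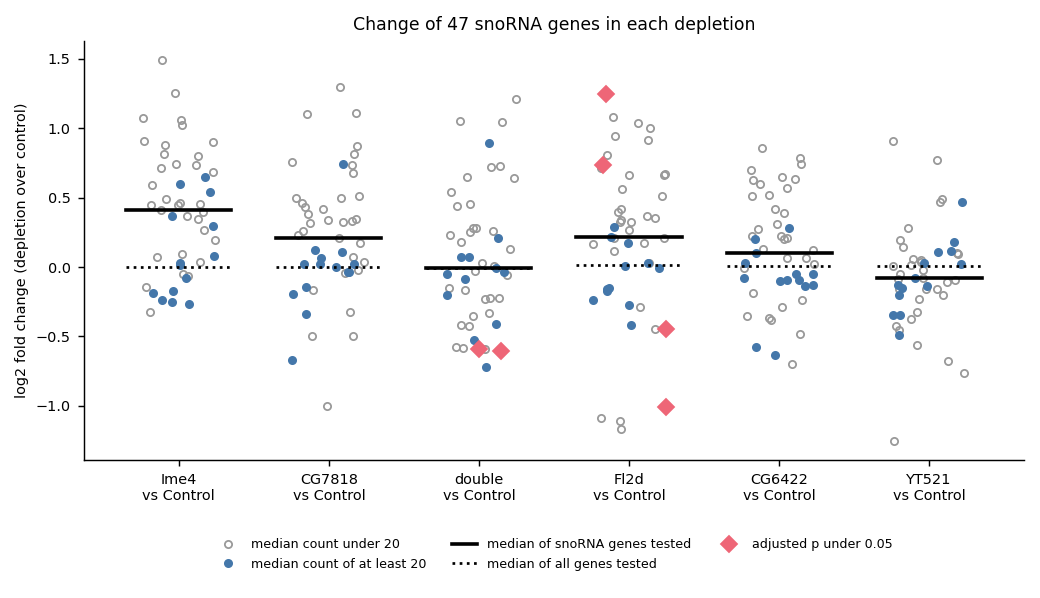
Log2 fold change of each of the 47 snoRNA genes tested, in each depletion over the control, as filled circles (median count of at least 20), open circles (lower) or diamonds (adjusted p under 0.05), with the medians of the 47 genes (solid lines) and of all 8360 genes (dotted lines). There are 2 diamonds in the double depletion, both lower, and 4 in the Fl2d depletion, 2 higher and 2 lower.

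After depletion of Ime4, 0 of the 47 genes passed the test in edgeR and 0 in DESeq2, with 3.72% of all genes called, and 7 had an unadjusted p under 0.05 in edgeR, as 18% of all genes did. snoRNA:Me28S-G2017, a methylation guide in RpL3 (3R:11224308-11224400), had the smallest p. It had 0.73, 0.62 and 0.71 CPM after Ime4 depletion, against 0.44, 0.21 and 0.40 CPM in the control. The groups did not overlap, and the log2 fold change was 1.02 (SE 0.34, edgeR adjusted p = 0.0984). Without both libraries low in mt:lrRNA it was called, at 1.02 (edgeR adjusted p = 0.0463). snoRNA:Or-CD10 came next, with 0.73, 0.31 and 0.33 CPM after Ime4 depletion, beside 0.13, 0.28 and 0.15 CPM in the control, and a log2 fold change of 1.25 (SE 0.44, edgeR adjusted p = 0.122). It met the count rule through depletion libraries alone, so these values are a description.

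After depletion of CG7818, 0 of the 47 genes passed the test in edgeR and 0 in DESeq2, with 2.32% of all genes called, and 4 had an unadjusted p under 0.05, as 15% of all genes did. Of all calls in this comparison 47.4% were higher, and 61.2% when libraries were scaled by their totals. snoRNA:Or-CD10 had 0.64, 0.50 and 0.32 CPM after CG7818 depletion, all above the 3 control values, with a log2 fold change of 1.30 (SE 0.44, edgeR adjusted p = 0.139). These values too are a description, as this gene met the count rule through depletion libraries alone. snoRNA:Psi28S-2444, a pseudouridine guide in RpL11 (2R:19443127-19443256), had 0.76, 0.54 and 0.41 CPM after CG7818 depletion, against 0.27, 0.35 and 0.15 CPM in the control. Its log2 fold change was 1.10 (SE 0.39, edgeR adjusted p = 0.153).

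After depletion of CG6422, 0 of the 47 genes passed the test in edgeR and 0 in DESeq2, with 19.1% of all genes called, and 1 had an unadjusted p under 0.05, as 32.2% of all genes did. Higher genes made 46.5% of all calls here, and 31.9% with scaling by library totals. The gene with the smallest p was snoRNA:Me28S-A1322, with 1.72, 1.61 and 1.17 CPM after CG6422 depletion, against 2.35, 2.50 and 2.13 CPM in the control. The groups did not overlap, and the log2 fold change was −0.64 (SE 0.25, edgeR adjusted p = 0.0818). It passed without both libraries low in mt:lrRNA (edgeR adjusted p = 0.018). Its mean was below that of the control in all 6 depletions, with log2 fold changes of −0.25 to −0.64, none of them called. snoRNA:Psi28S-2149 of the RpS7 intron (3R:30206783-30206926) had 0.48, 0.57 and 0.70 CPM after CG6422 depletion, against 0.31, 0.42 and 0.40 CPM in the control, and a log2 fold change of 0.63 (SE 0.35, edgeR adjusted p = 0.22).

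After depletion of YT521, 0 of the 47 genes passed the test in edgeR and 0 in DESeq2, with 6.52% of all genes called, and 1 had an unadjusted p under 0.05, as 21.5% of all genes did. It was snoRNA:Or-CD12, in an intron of RpL28 (3L:3221350-3221427), with 2, 1 and 8 counts after YT521 depletion, against 8, 10 and 6 counts in the control. In CPM the groups did not overlap, at 0.08, 0.04 and 0.29 against 0.35, 0.35 and 0.30. The log2 fold change was −1.25 (SE 0.58, edgeR adjusted p = 0.214). snoRNA:Me28S-A1322 followed, with 1.796, 1.704 and 1.507 CPM after YT521 depletion, below the control values above, and a log2 fold change of −0.49 (SE 0.24, edgeR adjusted p = 0.238).

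The counts of genes whose groups did not overlap lay below those over all genes in 5 of the 6 comparisons. After Ime4 depletion 8 of the 47 genes lay above all controls and 3 below, 23.4% against 27.5% of all genes (14.3% above and 13.2% below). For CG7818 there were 7 above and 4 below, 23.4% against 22.8% (12.7% above and 10.1% below). In the double depletion there were 5 above and 5 below, 21.3% against 34.8% (17.7% above and 17.1% below). For Fl2d there were 3 above and 4 below, 14.9% against 45.8% (24% above and 21.8% below). For CG6422 there were 4 above and 2 below, 12.8% against 37.2% (18.7% above and 18.5% below), and for YT521 0 above and 5 below, 10.6% against 27% (13.3% above and 13.7% below). The SEs of the snoRNA genes exceeded those of all genes, as given above, and what part counting error has in these shares was not tested.

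The 14 genes with a median count of at least 20 and the 33 shallower ones had different medians. The median log2 fold change of the 14 was 0.02 after Ime4, 0.01 after CG7818, −0.07 in the double depletion, −0.15 after Fl2d, −0.09 after CG6422 and −0.10 after YT521 depletion. That of the 33 was 0.46, 0.34, 0.13, 0.36, 0.22 and −0.08 in the same order. Medians over all genes lay within 0.015 of 0. Shallow genes can have entered through a group in which they were high, so the medians of the 33 are given as a description.

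Direct comparisons set 3 pairs of depletions side by side. Between Fl2d and the double depletion 5 of the 47 genes differed, 3 higher and 2 lower, 10.6% against 36.9% of all genes (18.6% higher and 18.3% lower). snoRNA:Psi28S-291 had 2.247, 2.402 and 3.468 CPM after Fl2d depletion, against 2.09, 1.66 and 1.52 CPM in the double depletion, a log2 fold change of 0.61 (SE 0.17, edgeR adjusted p = 0.00874). The Fl2d libraries all lay above those of the double depletion. snoRNA:2R:9445410, a gene without a host or a class in its symbol (2R:13557905-13558055), had 1.10, 1.78 and 1.51 CPM, against 1.04, 0.87 and 0.76 CPM (0.70, SE 0.25, edgeR adjusted p = 0.0336). snoRNA:Me28S-A2113 was higher by 0.79 (SE 0.27, edgeR adjusted p = 0.027), with overlapping groups.

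Lower after Fl2d than in the double depletion were snoRNA:Psi18S-920 and scaRNA:PsiU5-44. snoRNA:Psi18S-920 had 0.19, 0.67 and 0.70 CPM, against 1.04, 1.05 and 1.05 CPM (−1.001, SE 0.33, edgeR adjusted p = 0.0224). scaRNA:PsiU5-44 had 1, 22 and 12 counts after Fl2d depletion, or 0.05, 1.06 and 0.60 CPM, against 33, 30 and 24 counts, or 1.38, 1.31 and 1.14 CPM, in the double depletion (−1.16, SE 0.42, edgeR adjusted p = 0.0361). Neither was called without Fl2d 1, with edgeR adjusted p of 0.15 and 0.182. Without both libraries low in mt:lrRNA their adjusted p was 0.132 and 0.136, and 4 genes were higher and 0 lower, snoRNA:Psi28S-3342 among them (1.24, edgeR adjusted p = 0.00456).

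Single libraries also ended calls of this comparison. snoRNA:Psi28S-291 was lost without Fl2d 3 (edgeR adjusted p = 0.113), and snoRNA:Psi18S-920 without double depletion 1 (0.0502). snoRNA:2R:9445410 was lost without Fl2d 2 (0.144), Fl2d 3 (0.0749), double depletion 2 (0.0816) or double depletion 3 (0.11). snoRNA:Me28S-A2113 was lost without Fl2d 2 (0.114), Fl2d 3 (0.118), double depletion 1 (0.0836) or double depletion 3 (0.0908). scaRNA:PsiU5-44 was lost without Fl2d 3 (0.0605) or any 1 of the double depletion libraries (0.0916, 0.075 and 0.0523).

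Between Fl2d and YT521 depletion 3 of the 47 genes differed, all higher after Fl2d depletion, 6.38% against 39% of all genes (20.2% higher and 18.9% lower). snoRNA:Me28S-A2113 had 0.62, 1.30 and 1.31 CPM after Fl2d, against 0.53, 0.58 and 0.61 CPM after YT521 depletion (0.89, SE 0.27, edgeR adjusted p = 0.0109). snoRNA:Psi18S-1377b of the RpS7 intron (3R:30207493-30207630) had 0.29, 0.86 and 1.31 CPM, against 0.49, 0.40 and 0.36 CPM, with overlap at the first Fl2d library (0.97, SE 0.38, edgeR adjusted p = 0.0465). snoRNA:2R:9445410 had 1.10, 1.78 and 1.51 CPM, against 1.10, 0.87 and 0.86 CPM, overlapping at the first library of each (0.63, SE 0.24, edgeR adjusted p = 0.0415). The call of snoRNA:Me28S-A2113 was lost without Fl2d 2 (0.0628) or Fl2d 3 (0.0641). That of snoRNA:Psi18S-1377b was lost without Fl2d 2 (0.102), Fl2d 3 (0.384) or any 1 of the YT521 libraries (0.0623, 0.0974 and 0.126). That of snoRNA:2R:9445410 was lost without Fl2d 2 (0.19), Fl2d 3 (0.0939), YT521 2 (0.109) or YT521 3 (0.117).

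Between the nuclear reader YT521 and the cytoplasmic reader CG6422, 0 of the 47 genes passed in edgeR and 0 in DESeq2, and 3 had an unadjusted p under 0.05. Of all genes 12.9% were called and 26.2% had an unadjusted p under 0.05. Higher genes were 51.8% of all calls, and 72.1% with scaling by library totals. snoRNA:Psi28S-2149 had 0.33, 0.25 and 0.32 CPM after YT521, against 0.48, 0.57 and 0.70 CPM after CG6422 depletion (−0.95, SE 0.35, edgeR adjusted p = 0.0826). snoRNA:Psi28S-2562, a pseudouridine guide in RpS20 (3R:20822926-20823060), had 0.16, 0.11 and 0.18 CPM, against 0.38, 0.38 and 0.28 CPM (−1.20, SE 0.52, edgeR adjusted p = 0.148). Neither pair of groups overlapped.

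A test for any difference among the 7 groups called 5 of the 47 genes, 10.6% against 54.8% of all genes. They were snoRNA:Tudor-SN-a (edgeR adjusted p = 0.0179), snoRNA:Psi28S-291 (0.0245), snoRNA:Psi28S-2562 (0.0357), snoRNA:Me28S-A2113 (0.0368) and snoRNA:Psi28S-2444 (0.0483). snoRNA:Psi28S-2562 had at least 10 counts in 4 libraries (median count 6) and snoRNA:Psi28S-2444 in 8 (median count 8). Such shallow genes can have entered through a group in which they were high, so their calls are a description. Without Ime4 3 or without Fl2d 1 the test called 8, and without CG7818 2, control 1, double depletion 3 or YT521 1 it called 2. It called 3 without CG6422 3, Ime4 1, double depletion 1, double depletion 2 or YT521 2. snoRNA:Tudor-SN-a was lost without double depletion 1 (0.0583) and snoRNA:Psi28S-291 without double depletion 2 (0.0999) or 3 (0.112). These 2 calls were the steadiest, lost in 1 and 2 of 27 alternative fits. The call of snoRNA:Psi28S-2444 was lost in 18 of the 27, that of snoRNA:Psi28S-2562 in 14 and that of snoRNA:Me28S-A2113 in 12. Most of those losses came from leaving out a single library. Without both libraries low in mt:lrRNA snoRNA:Psi28S-2562 was lost (0.0636).

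After Fl2d depletion the hosts of both snoRNA genes that rose were called higher as well, and the hosts of both that fell were not called. Of the 29 hosts tested 11 rose and 0 fell after Fl2d depletion, 37.9% higher against 21.4% of all genes. Of these 11 calls 5 were kept without control 1, 6 without control 2, 5 without Fl2d 1, 7 without Fl2d 2 and 5 without both libraries low in mt:lrRNA. With scaling by library totals 5 were kept, and 4 in the fit of the compared groups only. RpL7A, a large-subunit ribosomal protein gene and the host of snoRNA:Or-CD10, fell in 2 depletions in which the snoRNA gene lay above all controls. RpL7A had 1904, 2045 and 1795 CPM after CG7818 depletion and 2217, 2164 and 2148 CPM in the double depletion, against 2815, 3010 and 3158 CPM in the control. It fell by 0.65 and by 0.46 on the log2 scale (SE 0.08 each, edgeR adjusted p = 8.839e-05 and 0.000992). snoRNA:Or-CD10 stood at 0.64, 0.50 and 0.32 CPM and at 0.50, 0.44 and 0.29 CPM in those groups, against 0.13, 0.28 and 0.15 CPM in the control, above all controls but not called. It also lay above all controls after Ime4 depletion, where RpL7A was not called (log2 fold change −0.03). This snoRNA gene met the count rule through depletion libraries alone, so its place above the controls and its called rise after Fl2d depletion are a description. After Fl2d depletion RpL7A had 4078, 3503 and 3193 CPM and rose by 0.26 (SE 0.08, edgeR adjusted p = 0.0165), beside the called rise of snoRNA:Or-CD10. That host call was lost without control 1 (0.0808), Fl2d 1 (0.122) or both libraries low in mt:lrRNA (0.101). Scaling by library totals (edgeR adjusted p = 0.0534) and the fit of the compared groups only (0.119) lost it too.

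The hosts of the other genes called after Fl2d depletion changed less than the snoRNA genes in the fit. RpL10Ab, host of snoRNA:Psi18S-920, had 2799, 2646 and 2734 CPM after Fl2d depletion, against 2354, 2380 and 2618 CPM in the control, a log2 fold change of 0.15 (SE 0.06, edgeR adjusted p = 0.0516), where the snoRNA gene fell by 1.01. Tudor-SN had 425.7, 395.4 and 464.0 CPM after Fl2d depletion, against 421.5, 439.7 and 410.4 CPM in the control, and its log2 fold change was 0.02 (SE 0.05). RpL30, host of snoRNA:Me28S-A2113, had 1553, 1348 and 1220 CPM, against 1166, 1184 and 1284 CPM, a log2 fold change of 0.18 (SE 0.07, edgeR adjusted p = 0.0455). The call of RpL30 was lost without control 1 (0.151), control 2 (0.118), Fl2d 1 (0.33), Fl2d 2 (0.0597) or both libraries low in mt:lrRNA (0.363). Scaling by library totals (edgeR adjusted p = 0.121), the fit of the compared groups only (0.216) and the fit without a filter (0.0509) lost it too. Of the 17 host calls in the 6 comparisons 7 held in every fit that was run.

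**Figure D4:**
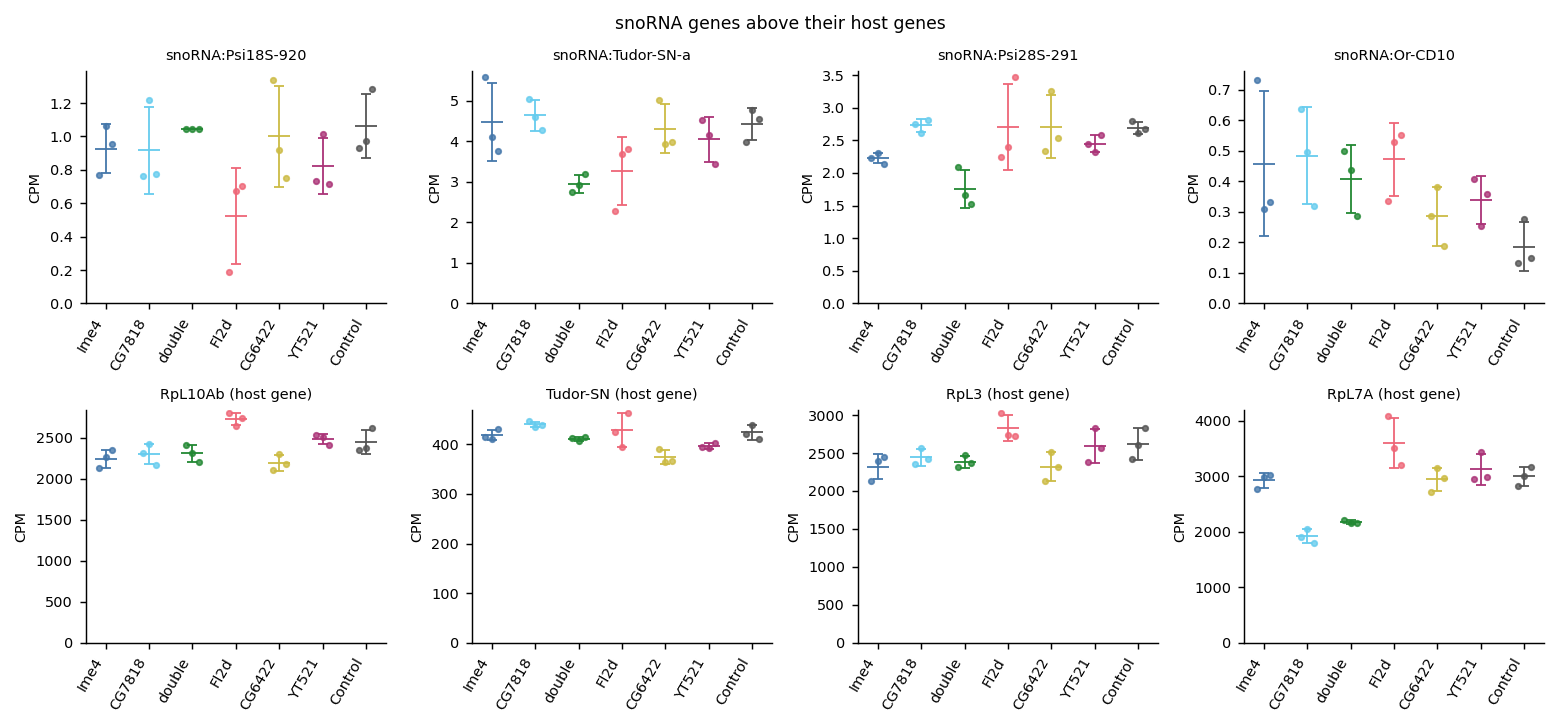
Level in CPM of 4 called snoRNA genes (top) and of their host genes (bottom) in the 7 groups, with libraries as points and the mean and SD of 3 libraries as bars. RpL7A is lowest in the CG7818 and double depletion libraries, where snoRNA:Or-CD10 lies above the control, as it also does after Ime4 and Fl2d depletion. RpL10Ab is highest after Fl2d depletion, where snoRNA:Psi18S-920 is lowest.

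Host calls were few outside the Fl2d depletion. RpL22, host of the most abundant snoRNA gene, had 155.4, 151.7 and 156.8 CPM after Ime4 depletion, 166.0, 161.3 and 150.5 CPM in the double depletion and 143.8, 150.4 and 146.5 CPM after CG6422 depletion, against 175.9, 171.0 and 195.2 CPM in the control. It fell by 0.22, 0.18 and 0.30 on the log2 scale (SE 0.05 each), with edgeR adjusted p of 0.0211, 0.032 and 0.000908. It was the 1 host called after Ime4 depletion (3.45% of 29, against 3.72% of all genes), and with RpL7A it made the 2 called in the double depletion (6.9%, against 11.4%). With Tudor-SN it made the 2 called after CG6422 depletion (6.9%, against 19.1%). The Ime4 call of RpL22 was lost without control 3 (0.134) or any 1 Ime4 library (0.0672, 0.0858 and 0.0503). Its double depletion call was lost without control 3 (0.185) or double depletion 2 or 3 (0.0725 and 0.148). With scaling by library totals both were lost, at edgeR adjusted p of 0.0737 and 0.118. Tudor-SN fell by 0.18 after CG6422 depletion (SE 0.05, edgeR adjusted p = 0.0116), a call lost without CG6422 2 (0.0573), CG6422 3 (0.0518) or control 2 (0.0701). After YT521 depletion 0 of 29 hosts were called in edgeR, against 6.52% of all genes, and 4 had an unadjusted p under 0.05, as 21.5% of all genes did.

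Across all 46 pairs, the difference of log2 CPM between a snoRNA gene and its host, taken within each library, was compared between groups without a test. After Ime4 depletion it lay above all controls for 12 genes and below for 0, or 26.1% of the pairs. The counts were 7 above and 2 below after CG7818, 6 and 2 in the double depletion, 2 and 5 after Fl2d, 5 and 1 after CG6422 and 0 and 2 after YT521 depletion. Over all genes tested, each taken by itself, 27.5%, 22.8%, 34.8%, 45.8%, 37.2% and 27% did not overlap in those comparisons. For Ime4, 14.3% of all genes lay above and 13.2% below. No such share was taken for differences between pairs of other genes. Shallow snoRNA genes can have entered through a group in which they were high, so the counts of pairs are a description. Of the 40 pairs in which both were tested, snoRNA gene and host had the same sign of change in 14, 18, 24, 30, 15 and 19 in the same order.

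**Figure D5:**
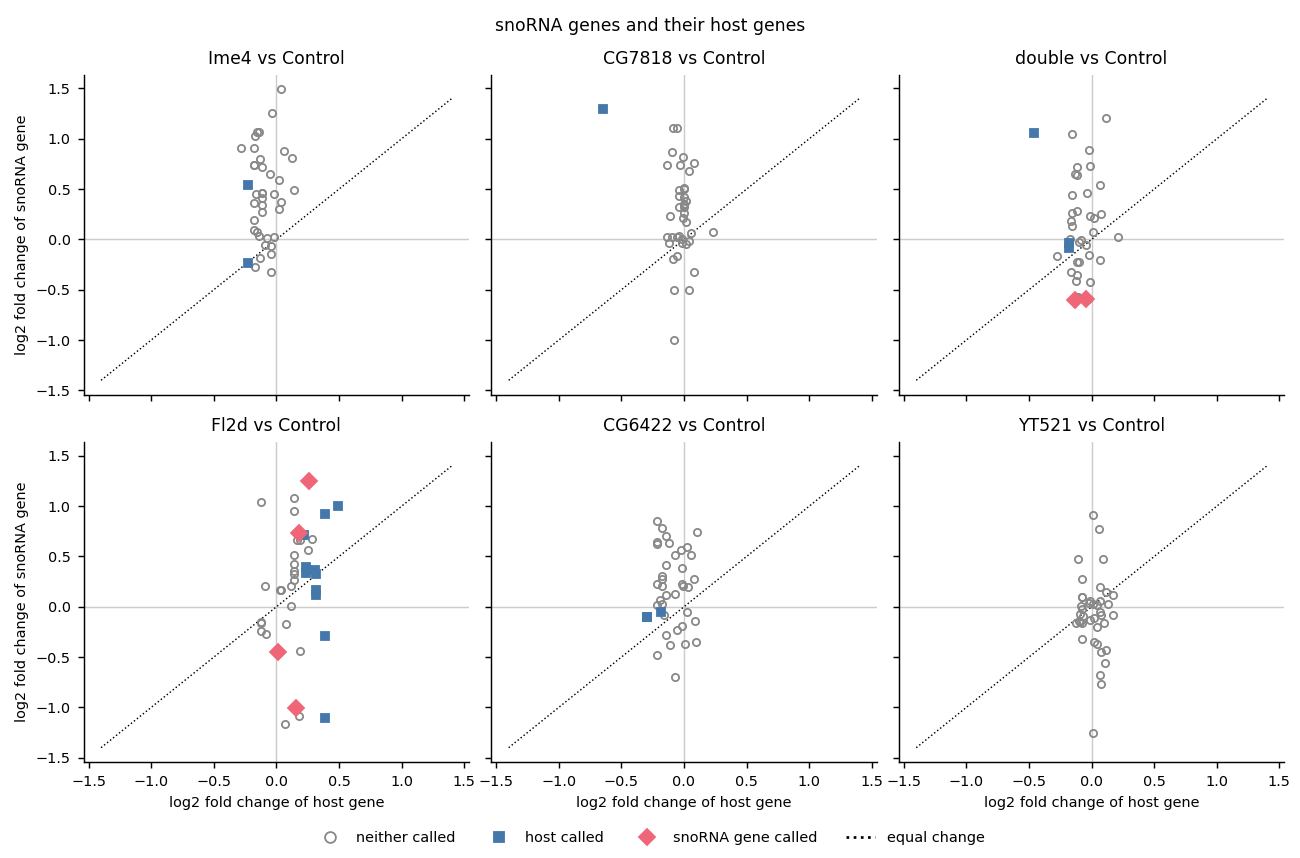
Log2 fold change of a snoRNA gene (vertical) against that of its host gene (horizontal) for 40 pairs, 1 panel for each depletion over the control, with diamonds for called snoRNA genes, squares for pairs in which just the host was called and a dotted line for equal change. The hosts lie between −0.65 for RpL7A after CG7818 depletion and 0.49 for Fib after Fl2d depletion, and the snoRNA genes between −1.25 for snoRNA:Or-CD12 after YT521 and 1.49 for snoRNA:Or-aca5 after Ime4 depletion.

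The 7 genes of the RpS7 intron, singled out as the largest set of 1 intron, were summed. They came to 3.92, 4.56 and 4.12 CPM after Fl2d depletion, against 2.70, 2.92 and 2.57 CPM in the control, 153.9% of the control mean without overlap. Of all genes tested, each taken by itself, 45.8% did not overlap in this comparison, and 24% lay above the control. The sum was not tested, and these genes were chosen after their values were seen. The first Fl2d library, low in the sum over all 53 genes, was not low here. The sums were 3.84 ± 1.15 CPM after Ime4 and 3.61 ± 0.43 after CG7818 depletion, 2.87 ± 0.34 in the double depletion, 3.34 ± 0.46 after CG6422 and 2.89 ± 0.08 after YT521 depletion, against 2.73 ± 0.18 CPM in the control (SD, n = 3 each). The CG7818 libraries also lay above all controls, at 4.07, 3.52 and 3.23 CPM, as 12.7% of all genes did in that comparison. RpS7 itself had 2857, 2420 and 2573 CPM after Fl2d depletion, against 2120, 2442 and 2577 CPM in the control, and a log2 fold change of 0.14 (SE 0.08) that was not called. None of the 6 genes tested was called over the control in any depletion. The closest was snoRNA:Psi18S-1377b after Fl2d depletion, with a log2 fold change of 0.95 (SE 0.39, edgeR adjusted p = 0.0535). The symbols snoRNA:Psi18S-1377a to snoRNA:Psi18S-1377e name copies of 1 guide, and reads that fit several copies could be left out or misplaced in counting, so values of single copies are uncertain.

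The core protein genes of both classes of snoRNA particle rose after Fl2d depletion. The lists of protein genes were chosen with earlier results of these data known. All 3 box C/D core genes matched rose: Fib (log2 fold change 0.49, SE 0.11), nop5 (0.54, SE 0.08) and Nop56 (0.45, SE 0.05), with edgeR adjusted p of 0.00111, 9.645e-06 and 1.3e-07. Fib had 281.5, 204.0 and 210.5 CPM after Fl2d depletion, against 145.3, 182.0 and 167.6 CPM in the control, highest in the first Fl2d library. All 4 box H/ACA core genes rose as well: Gar1 (0.55, SE 0.06), Nop10 (0.41, SE 0.07), Nop60B (0.39, SE 0.05) and NHP2 (0.38, SE 0.08), with edgeR adjusted p of 1.746e-07, 0.000146, 8.058e-06 and 0.000918. The 3 Fl2d values of Gar1 were 87.4, 92.6 and 90.4 CPM, against 65.82, 59.95 and 58.89 CPM in the control. Of all genes 21.4% rose in this comparison, and the median change over the 8360 genes was 0.01 on the log2 scale, beside 0.49 for the C/D and 0.40 for the H/ACA list.

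Other genes of snoRNA and ribosome production were followed in the same comparison. Of 6 assembly factors 2 rose, the ATPases pont (0.39) and rept (0.33). Of 14 genes of debranching, exosome and trimming 9 rose and 0 fell, led by the exosome subunits Ski6 (0.58), Csl4 (0.43) and Mtr3 (0.41) and the helicase gene Mtr4 (0.29). Of 12 genes of rRNA synthesis and ribosome biogenesis 9 rose and 0 fell, among them Polr1A (0.39), the large subunit of RNA polymerase I. Of 9 Cajal body and Sm assembly genes 5 rose, with Smn (0.30) and SmD1 (0.36) among them, and 3 in the fit of the compared groups only. Of 9 genes of nonsense-mediated decay and the exon junction complex 2 rose, Upf3 (0.26) and Upf1 (0.12), and 0 remained without control 3 or without Fl2d 1 and 1 without control 2.

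Of the 57 genes tested in these 7 lists, 34 were called after Fl2d depletion, 59.6% against 41.3% of all genes. In the others the lists held 1 call after Ime4 depletion (1.75%, against 3.72% of all genes), 1 after CG7818 (1.75%, against 2.32%), 4 in the double depletion (7.02%, against 11.4%), 7 after CG6422 (12.3%, against 19.1%) and 1 after YT521 depletion (1.75%, against 6.52%). Nop60B fell by 0.28 after Ime4 depletion and by 0.28 in the double depletion (SE 0.05 each, edgeR adjusted p = 0.00492 and 0.00138), with 231.9, 232.4 and 231.2 CPM and 231.0, 233.7 and 228.0 CPM, against 275.8, 292.7 and 274.0 CPM in the control. With scaling by library totals the Ime4 call was lost. The box H/ACA list held 2 calls without control 1 in both comparisons, and without Ime4 3 after Ime4 depletion. In the double depletion Ns1, a nucleolar GTPase gene, fell by 0.19, Rat1, a nuclear exonuclease gene, fell by 0.18 and SmD3 rose by 0.20. The call of Rat1 was lost without control 1, control 2, double depletion 1 or double depletion 3, and that of SmD3 without any 1 control or double depletion 1 or 2. SmD3 rose by 0.23 after CG7818 depletion, a call lost when any 1 of the 6 libraries was left out.

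After CG6422 depletion 3 genes of these lists rose and 4 fell. Gar1 rose by 0.21 (edgeR adjusted p = 0.0157), SmD1 by 0.21 (0.00978) and SmD2 by 0.17 (0.0225). CG10341 of the assembly list fell by 0.30 (edgeR adjusted p = 0.0206), the exosome nuclease gene Rrp6 fell by 0.21 (0.0129), mod of the ribosome biogenesis list fell by 0.34 (0.0182) and rig of the Cajal body and Sm list fell by 0.20 (0.0152). The box H/ACA list held 0 calls without CG6422 1, control 2 or control 3, and the assembly list 0 without CG6422 2, CG6422 3, control 1 or control 2. The trimming list held 0 calls without CG6422 2 or control 2, the biogenesis list 0 without CG6422 2, CG6422 3, control 2 or control 3, and the Cajal body and Sm list 1 without CG6422 3 or control 2. After YT521 depletion SmD1 rose by 0.18 (edgeR adjusted p = 0.049), and its list held 0 calls without any 1 control, YT521 1 or YT521 2. hoip, Shq1 and eIF4A3 of these lists were not analysed here.

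Markers of other cell types were set beside the snoRNA genes called after Fl2d depletion. Of the 7 plasmatocyte markers tested Ppn rose (0.98, SE 0.07) and crq (−0.19, SE 0.06) and srp (−0.21, SE 0.07) fell. PPO3 of the crystal cell and lamellocyte list (−0.22, SE 0.08) and Mlc2 of the muscle list (−0.69, SE 0.21) fell too, and 0 neuron or germline markers tested were called. Of all genes tested 41.3% were called in this comparison, 21.4% higher and 19.9% lower. In the double depletion Ppn rose (0.46) and ush (−0.23) and PPO3 (−0.25) fell, where 11.4% of all genes were called, 6.29% higher and 5.13% lower. The fat body and gut genes Lsp2 and Jon65Aiii were at 0 in the control, and the part of cell makeup in the values of the snoRNA genes was not tested. In bulk RNA fewer cells of a type and less RNA per cell cannot be told apart.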

How the data were processed

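Per the labels' protocols, poly(A) RNA of S2R+ cells was taken up on oligo(dT) beads, and TruSeq kits gave the libraries. The deposited values are whole-number read counts per gene, 1 table for each library. The submitters' processing notes name the genome BDGP6, the counter HTSeq 0.6.1, the aligner STAR 2.4.0h, DESeq2 1.6.3 and CASAVA 1.8.4. Not given in the sources used here are the release of the annotation and the strand option, so reads of a gene and of an antisense partner may not have been separated. snoRNA:Me28S-G3253 and snoRNA:Or-CD2 overlap exons on the other strand. There are no molecular identifiers.

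Biotypes, positions and hosts were taken from an Ensembl annotation of the BDGP6 assembly. A host is a gene on the same strand whose span holds the snoRNA gene. Counts of all genes in the 21 libraries were tested together with edgeR 4.0.16 in R 4.3.3 (TMM scaling, filterByExpr with a minimum count of 10, quasi-likelihood test, Benjamini-Hochberg adjustment over 8360 genes). The 5 summary lines of each table were left out of library sizes and tests. On simulated data for Fl2d against the control, over 8293 genes, 92% of 100 genes changed by 1 on the log2 scale and 97% of 100 changed by 2 were recovered, and 7 unchanged genes were called. The changed genes were drawn at random from all genes that passed the filter. The median SE of all genes was below that of the snoRNA genes, so these rates do not give the recovery of snoRNA genes. The snoRNA-to-host difference used log2 CPM with a prior count of 2. Intervals were taken as 1.96 SE.

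Genes named with values were the 8 highest by mean CPM, the called ones, the 2 with the smallest p where none was called, and their hosts. Genes of the RpS7 intron, U3 and those named for position or share of host were chosen after their values were seen. The snoRNA genes and all gene lists were chosen with earlier results of these data known. Alternatives were DESeq2 1.42.0, other scaling, no filter, a fit of the compared groups only, a replicate block, other prior counts, a stricter rule and leaving out libraries.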

Additional observations from a re-analysis of the deposited data

Results flagged for a closer look

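Reads aligned to several places, which the deposited tables count in a summary line and assign to no gene, were a larger share in 3 depletions than in any control library. They made up 16.44% of all counted reads after Ime4 depletion, 16.3% in the double depletion and 14.94% after CG6422 depletion (means of 3 libraries), against 13.6%, 12.14% and 13.16% in the control libraries. The Fl2d libraries had 11.75%, 18.69% and 16.31%. The part of such reads in the counts of snoRNA genes with near-identical copies was not tested.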

How the results depend on the processing

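Every one of the 19 calls of snoRNA genes was lost in at least 1 of the alternatives run, and no result changed direction. With DESeq2, 2 genes were called for Fl2d against the control (4 in edgeR), 1 for Fl2d against YT521 (3 in edgeR) and 3 among the 7 groups (5 in edgeR). It lost both rises after Fl2d depletion, snoRNA:Me28S-A2113 (DESeq2 adjusted p = 0.091) and snoRNA:Or-CD10 (0.0616), and against the double depletion snoRNA:2R:9445410 (0.0623) and snoRNA:Me28S-A2113 (0.0771). Against YT521 it lost snoRNA:2R:9445410 (0.0831) and snoRNA:Psi18S-1377b (0.0649). Among the 7 groups it lost snoRNA:Me28S-A2113 (0.116), snoRNA:Psi28S-2444 (0.13) and snoRNA:Psi28S-2562 (0.0622). Scaling by library totals lost snoRNA:2R:9445410 against YT521 (edgeR adjusted p = 0.0538) and snoRNA:Psi28S-2444 among the 7 groups (0.0628). With a fit of the compared groups only, which tests fewer genes, 4 were called for the double depletion (2 in the fit of all groups), 1 for CG6422 (0), and 0 for Fl2d against the control (4), the double depletion (5) or YT521 (3). Without a filter 1 was called for CG6422 and 1 for YT521 against CG6422, and both rises after Fl2d depletion were lost, snoRNA:Me28S-A2113 (edgeR adjusted p = 0.0739) and snoRNA:Or-CD10 (0.0557). It also lost snoRNA:Me28S-A2113 against the double depletion (0.059) and among the 7 groups (0.0729), snoRNA:2R:9445410 against YT521 (0.0667) and snoRNA:Psi28S-2444 among the 7 groups (0.0811). Without both libraries low in mt:lrRNA 1 was called for Ime4, 4 for the double depletion and 1 for CG6422. A rule of 10 counts in every library of a group left 28 snoRNA genes, of which 3 were called among the 7 groups. Where not given above, the cause was not tested.

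Leaving out 1 library at a time gave 0 to 1 calls for the double depletion, 1 to 4 for Fl2d against the control (1 without control 3, 2 without control 2), 2 to 4 against the double depletion (2 without double depletion 1 or 3), and 0 to 4 against YT521 (0 without Fl2d 3, 1 without Fl2d 2, YT521 2 or YT521 3). It gave 0 to 1 for YT521 against CG6422 (1 without YT521 3), 2 to 8 among the 7 groups and 0 to 0 for the single Ime4, CG7818, CG6422 and YT521 depletions.

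Correlations of same-numbered depletion and control libraries were −0.234 to 0.172. Control 1 was the best match of replicate 1 for Ime4 (0.109), CG7818 (0.06), double (0.068), CG6422 (0.134) and YT521 (0.172), but not for Fl2d (−0.176). No replicate 2 or 3 matched its own number best, so these numbers give no pairing there. The sum over the 53 genes was highest in replicate 1 of all groups but CG7818 and Fl2d. What the replicate 1 libraries have in common was not tested. With the replicate block 3 genes were called for Fl2d against the control, 2 against YT521 and 5 against the double depletion, 2 for the double depletion, 6 among the 7 groups and 0 in the others. snoRNA:Tudor-SN-a after Fl2d depletion (edgeR adjusted p = 0.0541) and snoRNA:Psi18S-1377b against YT521 (0.0539) were lost under it.

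With prior counts of 0.5 and 5, 43 and 44 of the 276 snoRNA-to-host differences did not overlap, against 44 with a prior count of 2. Median counts of 4 to 107 limit what could be detected.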
